A study of Mus musculus with 29 samples.

Results

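The contractile apparatus of smooth muscle was followed through 10 genes: Myh11, Acta2, Tagln, Cnn1, Smtn, Myl9, Mylk, Lmod1, Des and Ppp1r12a. The rule names contractile genes by symbol and uses no measured value, though earlier results of these data were known when the list was made, and the symbols were matched to 10 of the 56748 genes of the counts table. All 10 passed the limit on low counts (more than 10 counts in more than 10 samples), as did 12353 genes in all, so every gene of the set was tested. The RNA came from the aortic arch of Ercc1Δ/- mice, which carry 1 null and 1 truncated, hypomorphic allele of the DNA repair endonuclease gene Ercc1 in all of their cells, and of wildtype (WT) littermates. All mice were F1 hybrids of C57BL6J and FVB parents, and vessels were flushed with phosphate buffered saline before the arch was taken. Mice fed ad libitum (AL) were killed at 6 weeks (5 WT, 5 Ercc1Δ/-) or at 22 weeks (4 WT, 4 Ercc1Δ/-). Mice on dietary restriction (DR), which received 10% less food from 7 weeks and 30% less from 9 weeks on, were killed at 22 weeks (5 WT, 5 Ercc1Δ/-). Each group held both sexes. One further WT female of 22 weeks on AL (sample 003) was left out, as it was by the authors, which leaves 28 of 29 libraries.

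Smooth muscle contracts when myosin thick filaments pull on actin thin filaments, and the myosin motor is switched on when its regulatory light chain is phosphorylated. Myosin light chain kinase adds that phosphate in answer to calcium, and myosin phosphatase removes it. The genes that encode this machinery are the classic markers of the differentiated, contractile state of vascular smooth muscle cells, and many of them are driven by serum response factor (SRF) and its coactivator myocardin through a short promoter element called the CArG box. In the wall of the aorta these cells fill the media, where they set tone and bear load.

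The bases just before the transcription start of Acta2, Myl9 and Lmod1 are shown because they are the members in whose promoters a CArG-like element was found. The element was searched on both strands as CC, then 6 bases that are A or T, then GG, in 250 bases before and 50 after the start (RefSeq, build GRCm38.p6). Promoters were held for 8 of the 10 members, those other than Myh11 and Tagln. The strict element occurred in 1 of these 8, Myl9, against 1.63% of 32851 mouse promoters. With 1 mismatch allowed it occurred in 3 of 8, against 21.1% of all promoters. Capitals mark the matches, which may contain 1 mismatch, and each sequence runs 5′ to 3′ up to the base before the start.
Acta2: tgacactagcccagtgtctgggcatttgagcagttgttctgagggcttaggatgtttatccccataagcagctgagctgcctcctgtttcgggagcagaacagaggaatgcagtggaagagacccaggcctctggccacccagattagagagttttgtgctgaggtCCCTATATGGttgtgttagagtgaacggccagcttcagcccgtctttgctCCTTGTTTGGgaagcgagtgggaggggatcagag
Myl9: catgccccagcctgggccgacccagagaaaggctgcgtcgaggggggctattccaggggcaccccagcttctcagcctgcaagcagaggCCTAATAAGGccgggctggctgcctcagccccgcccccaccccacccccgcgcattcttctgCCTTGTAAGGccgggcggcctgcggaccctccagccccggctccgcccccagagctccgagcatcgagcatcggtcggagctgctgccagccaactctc
Lmod1: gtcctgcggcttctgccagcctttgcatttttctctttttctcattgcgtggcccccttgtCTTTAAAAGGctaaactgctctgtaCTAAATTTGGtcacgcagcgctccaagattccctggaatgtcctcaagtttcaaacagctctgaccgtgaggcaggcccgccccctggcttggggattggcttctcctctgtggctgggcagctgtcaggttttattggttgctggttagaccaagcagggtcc
The Acta2 sequence lies at chr19:34255374-34255623 on the minus strand and its matches begin 84 and 34 bases before the start. The Myl9 sequence lies at chr2:156775214-156775463 on the plus strand, with matches 161 and 99 bases before the start, of which the first is the strict element. The Lmod1 sequence lies at chr1:135324563-135324812 on the plus strand, with matches 189 and 164 bases before the start. A match is a run of letters, and whether a factor binds there was not measured.

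Values are given as normalized counts, the count of a gene scaled by the library total and by the trimmed mean of M-values to a common library of 3703241 counts. Differences were tested with edgeR's quasi-likelihood test with sex as a term, on the 18 AL samples or on the 18 samples of 22 weeks. A gene was called a differentially expressed gene (DEG) at an adjusted p of at most 0.05, over all genes tested, and a change of at least 1.2-fold. The libraries held 921167 to 9616382 gene counts (median 3256708), and even the lowest member, Des, had at least 53 raw counts in each library used. Ercc1 itself was lower in Ercc1Δ/- mice in the 3 comparisons, by 1.41 (6 weeks), 0.97 (22 weeks, AL) and 1.01 (22 weeks, DR) on the log2 scale, and all 3 were DEGs. The groups did not overlap at 22 weeks, whereas at 6 weeks the lowest WT library had 52.2 normalized Ercc1 counts and the highest Ercc1Δ/- library 56.3. Replicates of every group came from separate mice and differed by more than sampling noise.

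Most members were among the most abundant transcripts of the arch. Per kilobase of exon in WT mice of 22 weeks on AL, Acta2 reached 2698.7 ± 323.4 normalized CPM (SD, n = 4), Tagln 2540.5 ± 269.4, Myh11 1922.7 ± 185.4 and Myl9 1405.4 ± 82.8. Smtn (684.6 ± 32.3), Cnn1 (633.5 ± 51.7) and Lmod1 (426.9 ± 40.9) formed a middle tier, followed by Mylk at 205.4 ± 12.1 and Ppp1r12a at 52.1 ± 2.31. Des stood last at 17.2 ± 5.06. The neighbours Acta2 and Tagln, and likewise Smtn and Cnn1, differed by less than the sum of their standard deviations. Among 12343 genes with an exon length, Tagln ranked 7, Acta2 8, Myh11 11 and Myl9 14 by mean level per length over all samples, while Mylk ranked 139, Ppp1r12a 621 and Des 2211. These levels rest on merged exons, and Mylk counts include the short transcript for telokin, which shares the end of the Mylk gene.

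Together the 10 genes took 4.1% ± 0.266 of all gene counts in WT mice of 22 weeks on AL (SD, n = 4) and 2.68% ± 0.507 in Ercc1Δ/- mice of that age on AL (n = 4). The shares at 6 weeks were 3.92% ± 0.338 in WT and 3.2% ± 0.389 in Ercc1Δ/- mice (n = 5 each). On DR they were 4.08% ± 0.411 and 2.95% ± 0.119 (n = 5 each). At 22 weeks every Ercc1Δ/- library lay below every WT library on the same diet, with 2.14 to 3.12% against 3.8 to 4.36% on AL and 2.81 to 3.13% against 3.68 to 4.77% on DR. The highest Ercc1Δ/- library of 6 weeks (3.77%) lay inside the WT range of 3.58 to 4.43%. The mitochondrial share of counts moved with genotype at 22 weeks on AL, from 2.47 to 3.72% in WT to 5.37 to 5.96% in Ercc1Δ/- mice. Without mitochondrial genes in the total, the members' mean shares were 4.23% and 2.83%.

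**Figure D1:**
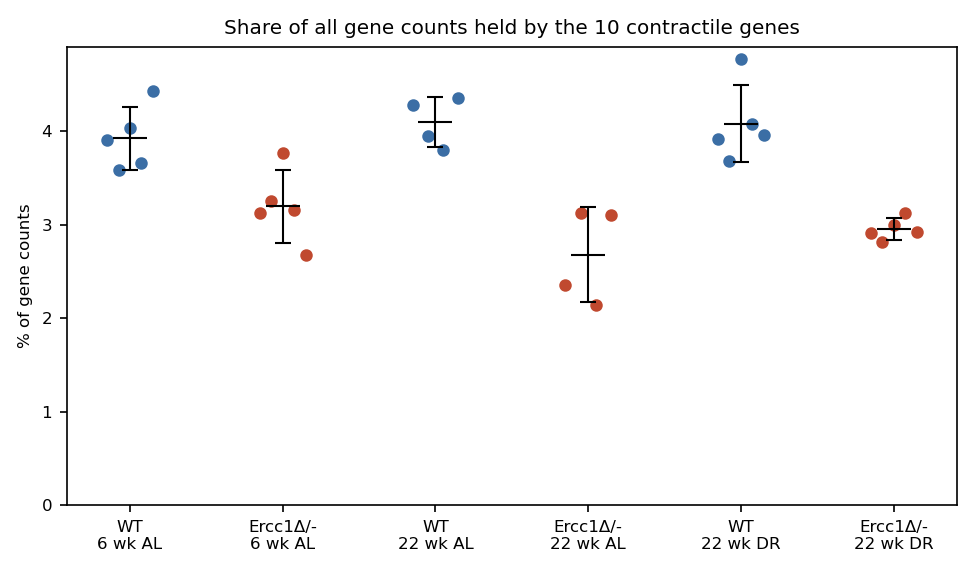
Share of all gene counts held by the 10 contractile genes, in percent, for each library (points) of the 6 groups, with the mean and SD of each group. At 22 weeks the Ercc1Δ/- libraries (2.14 to 3.13%) sit below all WT libraries (3.68 to 4.77%), and at 6 weeks the genotypes overlap.

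The first question was how the contractile genes differ between genotypes at each age and diet. Among mice of 22 weeks on AL, 8 of 10 members were lower in Ercc1Δ/- mice, 0 were higher, and Tagln and Des did not pass the test. Of all genes tested, 6.16% were called lower and 5.88% higher. On DR at 22 weeks, 9 of 10 members were lower, all except Des, against 7.03% of all genes called lower and 5.97% called higher. The 6-week comparison had 2 of 10 lower, Acta2 and Mylk, against 1.13% of all genes called lower. All 10 members had a negative log2 fold change in each of the 3 comparisons, with medians of -0.29 at 6 weeks, -0.65 at 22 weeks on AL and -0.55 at 22 weeks on DR, where the medians of all genes tested were 0.02, 0.03 and 0. Read by overlap alone, every Ercc1Δ/- library lay below every WT library for 4 members at 6 weeks (1.81% of all genes), for 8 at 22 weeks on AL (9.61%) and for 7 at 22 weeks on DR (5.2%). In bulk tissue, fewer smooth muscle cells and less RNA per smooth muscle cell cannot be told apart.

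**Figure D2:**
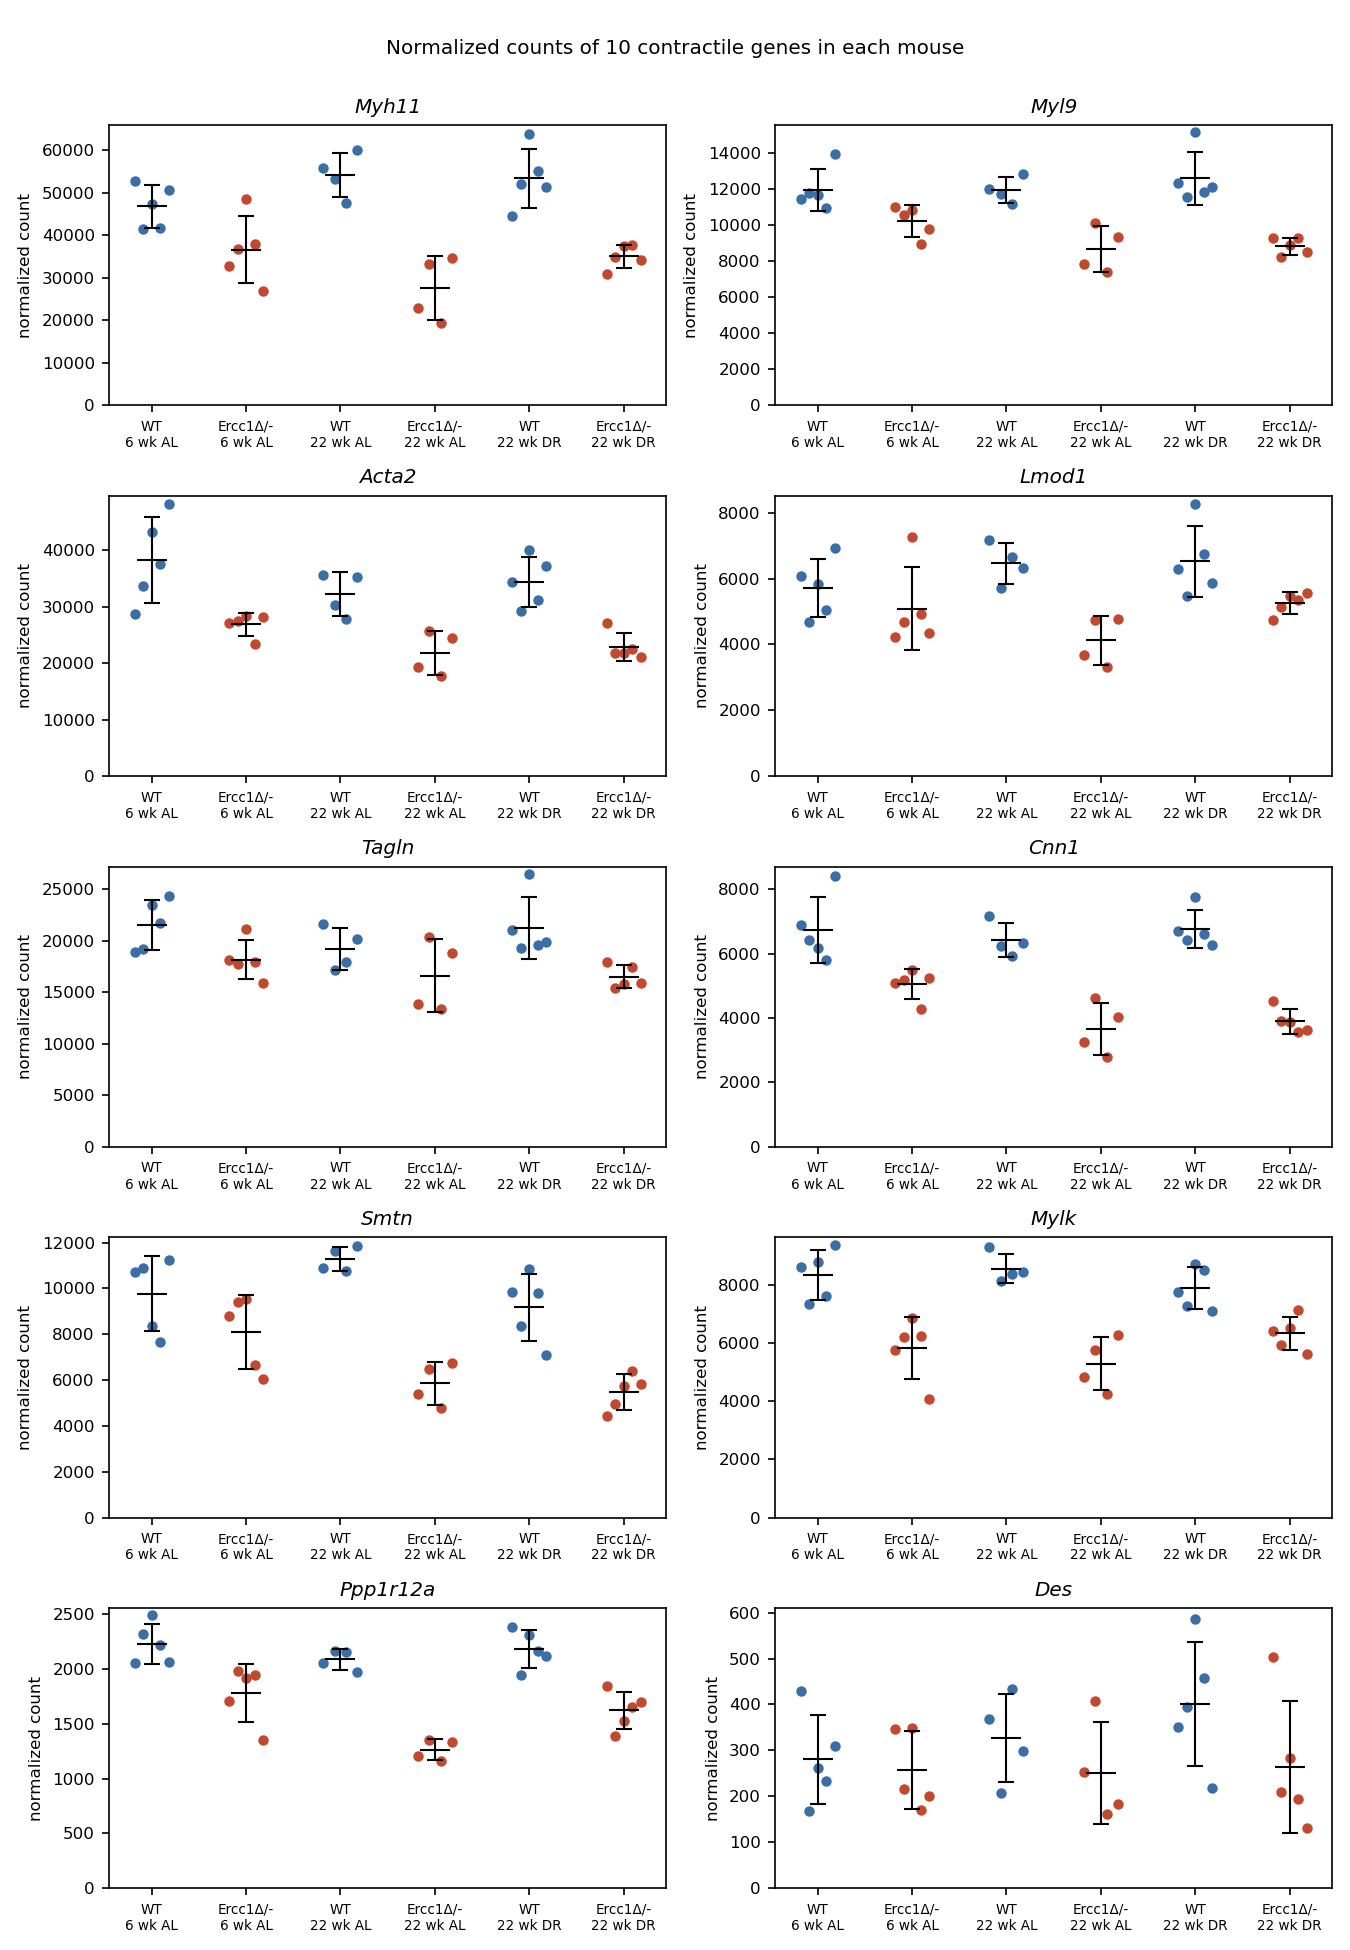
Normalized counts (linear axis from 0) of each of the 10 contractile genes in every mouse (points) of the 6 groups, with the mean and SD of each group. At 22 weeks on AL the genotypes overlap for Tagln and Des and are apart for the other 8 genes.

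Of the thick filament genes, Myh11, the smooth muscle myosin heavy chain, showed the largest difference. It lies on chromosome 16, 14012399 to 14109236 (minus strand, GRCm39). In the 4 WT mice of 22 weeks on AL it had 47511.7, 53146.3, 55808.3 and 59964.2 normalized counts, and in the 4 Ercc1Δ/- mice 19421.3, 22919.5, 33166.0 and 34741.9. The ranges were far apart, and the lowest pair of Ercc1Δ/- values came from the 2 females. Myh11 was 48.4% lower, a log2 fold change of -0.96 (SE 0.17, edgeR adjusted p = 0.000703). On DR the WT mice ranged from 44591.3 to 63742.1 (median 52174.9) and the Ercc1Δ/- mice from 30940.0 to 37669.1 (median 34787.6), again without overlap. There Myh11 was 34.3% lower (log2 fold change -0.61, SE 0.12, adjusted p = 0.00125). Ranges overlapped at 6 weeks, with 26968.8 to 48489.6 in Ercc1Δ/- against 41473.7 to 52857.8 in WT mice, and the log2 fold change of -0.34 did not pass (adjusted p = 0.332).

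Myl9, the regulatory light chain that carries the activating phosphate (chromosome 2, 156617084 to 156623579, plus strand), moved less than its heavy chain. The WT mice of 22 weeks on AL had 11173.1, 11696.5, 12014.8 and 12851.0 normalized counts and the Ercc1Δ/- mice 7391.5, 7836.6, 9350.9 and 10089.3. No value of one genotype reached the other. The log2 fold change was -0.43 (SE 0.10, adjusted p = 0.00634), and on DR it was -0.51 (SE 0.08, adjusted p = 0.000124), where the groups did not overlap either. At 6 weeks it was -0.21 (adjusted p = 0.293), with 1 Ercc1Δ/- library at 11024.6 inside the WT range.

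Among the thin filament genes, Acta2, the smooth muscle actin itself (chromosome 19, 34217737 to 34232990, minus strand), was lower at both ages. At 6 weeks the Ercc1Δ/- mice had 23394.4, 27102.8, 27427.0, 28174.6 and 28352.6 normalized counts and the WT mice 28749.1, 33755.2, 37623.8, 43301.7 and 48163.4. The ranges did not overlap, though the highest Ercc1Δ/- library and the lowest WT library lay close together. Acta2 was 28.9% lower at 6 weeks (log2 fold change -0.49, SE 0.11, adjusted p = 0.0261). A two-sided exact permutation test of the normalized counts gave p = 0.00794, the smallest that 5 against 5 samples allow. Any gene without overlap gets that p, as Cnn1, Mylk and Ppp1r12a did at 6 weeks, so it restates the lack of overlap. The Ercc1Δ/- mice of 22 weeks on AL ranged from 17728.3 to 25726.7 and the WT mice from 27802.1 to 35623.6 (log2 fold change -0.52, SE 0.13, adjusted p = 0.00927). On DR the difference was -0.59 (SE 0.10, adjusted p = 0.00025), again without overlap. The genotype by age interaction of Acta2 was -0.02, with a 95% interval of -0.35 to 0.31.

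Tagln, which encodes the actin-binding protein transgelin (chromosome 9, 45840909 to 45847404, minus strand), was the thin filament gene that did not pass at 22 weeks on AL. The WT mice had 17169.1, 17959.7, 20164.9 and 21625.7 normalized counts and the Ercc1Δ/- mice 13362.2, 13868.7, 18843.6 and 20412.9. The 2 Ercc1Δ/- females lay below all WT mice and the 2 Ercc1Δ/- males lay within the WT range. The log2 fold change was -0.17 (95% interval -0.41 to 0.07, adjusted p = 0.398), and in males alone it was -0.02. On DR the Ercc1Δ/- mice had 15391.2 to 17905.8 and the WT mice 19348.6 to 26543.2, without overlap. There Tagln was 22.2% lower (log2 fold change -0.36, SE 0.09, adjusted p = 0.0097). The genotype by diet interaction of Tagln was -0.19 and did not pass (adjusted p = 0.756), so the genotype effect was not shown to differ between diets.

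The make-up of the contractile transcripts also differed between genotypes on AL at 22 weeks. Tagln took 12.6% ± 0.706 of the members' counts in WT mice (range 11.7 to 13.3%) and 17.5% ± 0.661 in Ercc1Δ/- mice (16.8 to 18.1%, n = 4 each). Myh11 took 35.4% ± 1.26 and 28.7% ± 2.26. The log2 ratio of Tagln to Myh11 counts was -1.49 ± 0.13 in WT and -0.71 ± 0.14 in Ercc1Δ/- mice (n = 4 each), and the ranges of -1.63 to -1.37 and -0.88 to -0.54 did not overlap. On DR the ratio was -1.33 ± 0.16 in WT and -1.08 ± 0.17 in Ercc1Δ/- mice (n = 5 each), with overlapping ranges, and at 6 weeks it was -1.12 ± 0.21 and -0.99 ± 0.18 (n = 5 each). These ratios do not depend on the scaling of the libraries. They were singled out after the values of both genes were seen and were not tested.

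Cnn1, or calponin, an actin-binding protein that restrains the myosin motor (chromosome 9, 22010512 to 22020926, plus strand), was lower at 22 weeks on both diets. On AL the WT mice had 5942.3, 6225.3, 6343.5 and 7162.3 normalized counts and the Ercc1Δ/- mice 2794.7, 3251.9, 4020.0 and 4616.5. On DR the WT mice had 6280.8, 6427.4, 6615.0, 6702.8 and 7774.1 and the Ercc1Δ/- mice 3564.0, 3619.5, 3864.5, 3910.7 and 4516.4. Neither pair of groups overlapped. The log2 fold changes were -0.77 (SE 0.12, adjusted p = 0.000201) and -0.79 (SE 0.10, adjusted p = 3.77e-06), or 41.4% and 42.3% lower. At 6 weeks Cnn1 also did not overlap between genotypes, at 4279.4 to 5497.5 against 5790.7 to 8427.4, but its log2 fold change of -0.41 just missed the threshold with edgeR (SE 0.11, adjusted p = 0.0554). With DESeq2 it passed (-0.42, adjusted p = 0.0115).

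Smtn, which encodes the smoothelins of the contractile cytoskeleton (chromosome 11, 3467520 to 3490612, minus strand), came next to Myh11 in size of difference at 22 weeks on AL. Its levels at 22 weeks on AL were 10778.3, 10908.4, 11644.5 and 11856.7 normalized counts in WT and 4768.1, 5398.8, 6496.5 and 6746.4 in Ercc1Δ/- mice. The groups were widely separated and the 4 WT values were close to each other. Smtn was 47.5% lower (log2 fold change -0.93, SE 0.15, adjusted p = 0.000235), and 39.9% lower on DR (-0.74, SE 0.10, adjusted p = 3.06e-05), where the groups did not overlap. The 6-week difference was -0.26 (adjusted p = 0.418) and the ranges overlapped. Smtn had the most negative genotype by age interaction of the members, -0.67 (SE 0.20), which did not pass over all genes (adjusted p = 0.139).

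Lmod1, or leiomodin, which nucleates actin filaments (chromosome 1, 135252509 to 135295907, plus strand), had 5708.8, 6307.6, 6644.3 and 7188.5 normalized counts in WT mice of 22 weeks on AL and 3311.3, 3672.0, 4747.6 and 4766.3 in Ercc1Δ/- mice. The ranges did not overlap and the log2 fold change was -0.61 (SE 0.15, adjusted p = 0.00937). With sample 003 added it was -0.48 (adjusted p = 0.1). On DR the ranges overlapped, with 4744.6 to 5573.1 in Ercc1Δ/- and 5461.1 to 8270.3 in WT mice. The log2 fold change of -0.30 passed (SE 0.09, adjusted p = 0.037) but was lost without any of several single libraries, for example -0.21 (adjusted p = 0.146) without WT sample 010 and -0.23 (adjusted p = 0.131) without Ercc1Δ/- sample 006. It was also lost with total-count scaling, with sample 003 added, without the sex term, with all 6 groups in the fit and with only the compared groups. At 6 weeks it was -0.16 (adjusted p = 0.688).

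Of the enzymes that set light chain phosphorylation, Mylk, the light chain kinase (chromosome 16, 34565580 to 34822790, plus strand), was lower at both ages. At 6 weeks the Ercc1Δ/- mice had 4063.2, 5778.9, 6222.7, 6247.6 and 6872.7 normalized counts and the WT mice 7335.1, 7626.0, 8639.6, 8788.2 and 9377.4. No library overlapped, and Mylk was 29.5% lower (log2 fold change -0.50, SE 0.12, adjusted p = 0.0356). Mylk at 22 weeks on AL had 8137.5, 8394.8, 8441.5 and 9297.7 in WT and 4261.5, 4838.9, 5762.9 and 6298.6 in Ercc1Δ/- mice, 37.7% lower (-0.68, SE 0.14, adjusted p = 0.00199). On DR the ranges met, at 5635.8 to 7154.4 in Ercc1Δ/- against 7125.7 to 8738.9 in WT mice, and the difference of -0.32 passed (SE 0.08, adjusted p = 0.0063). When all 6 groups shared a fit, the DR difference of Mylk had an adjusted p of 0.0516, and with total-count scaling it was under 1.2-fold (-0.24).

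Ppp1r12a, the targeting subunit through which myosin phosphatase finds its substrate (chromosome 10, 107997640 to 108120336, plus strand), is expressed in many cell types besides smooth muscle. It had 1974.1, 2051.0, 2158.7 and 2168.1 normalized counts in WT and 1163.0, 1211.0, 1335.8 and 1350.1 in Ercc1Δ/- mice of 22 weeks on AL. Both groups were tight and far from each other, and Ppp1r12a was 39.8% lower (log2 fold change -0.73, SE 0.11, adjusted p = 0.000117), the smallest adjusted p of the members in this comparison. On DR it was 25.5% lower (-0.43, SE 0.08, adjusted p = 0.000493), without overlap. Of 6-week mice, the Ercc1Δ/- group had 1352.8 to 1983.3 and the WT group 2054.6 to 2488.1. These ranges did not overlap, yet the log2 fold change of -0.31 did not pass with edgeR (SE 0.10, adjusted p = 0.116), whereas it passed with DESeq2 (-0.32, adjusted p = 0.0377). The kinase and the phosphatase subunit were lower together at 22 weeks on AL, where the log2 ratio of Mylk to Ppp1r12a counts was 2.04 ± 0.12 in WT and 2.05 ± 0.15 in Ercc1Δ/- mice (n = 4 each). At 6 weeks the ratio was 1.9 ± 0.22 in WT and 1.7 ± 0.1 in Ercc1Δ/- mice (n = 5 each). On DR it was 1.85 ± 0.12 and 1.97 ± 0.18 (n = 5 each), and the ratio was not tested.

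Des, the muscle intermediate filament protein desmin (chromosome 1, 75320511 to 75345223, plus strand), was low and scattered. At 22 weeks on AL the WT mice had 208.1, 298.1, 368.5 and 432.8 normalized counts and the Ercc1Δ/- mice 162.3, 184.1, 252.1 and 407.3. The Des ranges overlapped in all 3 comparisons and no difference passed, with log2 fold changes of -0.19, -0.32 and -0.65 (adjusted p = 0.864, 0.61 and 0.17). The 95% interval at 22 weeks on AL, -1.01 to 0.36, includes differences as large as that of Myh11. Des is also made by heart muscle, and the summed counts of 10 cardiac markers ran from 295.6 to 2276.0 over the libraries. On DR they ran from 519.3 to 907.2 in WT and 952.1 to 2276.0 in Ercc1Δ/- mice. Of these markers Tnnt2 had the highest mean over the libraries (491.0 normalized counts), before Ryr2 (154.8) and Myh6 (107.1). On DR, Ercc1Δ/- sample 006 had the highest Des of its group, 503.4, and a cardiac sum of 2143.0, and without it the log2 fold change of Des was -0.93 (adjusted p = 0.0459). The 2 values did not go together in every library, since Ercc1Δ/- sample 029 had a cardiac sum of 2276.0 with 283.8 for Des, and WT sample 010 had 774.8 with the highest Des of all, 586.2. The part of heart tissue in the Des values was not tested.

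**Figure D3:**
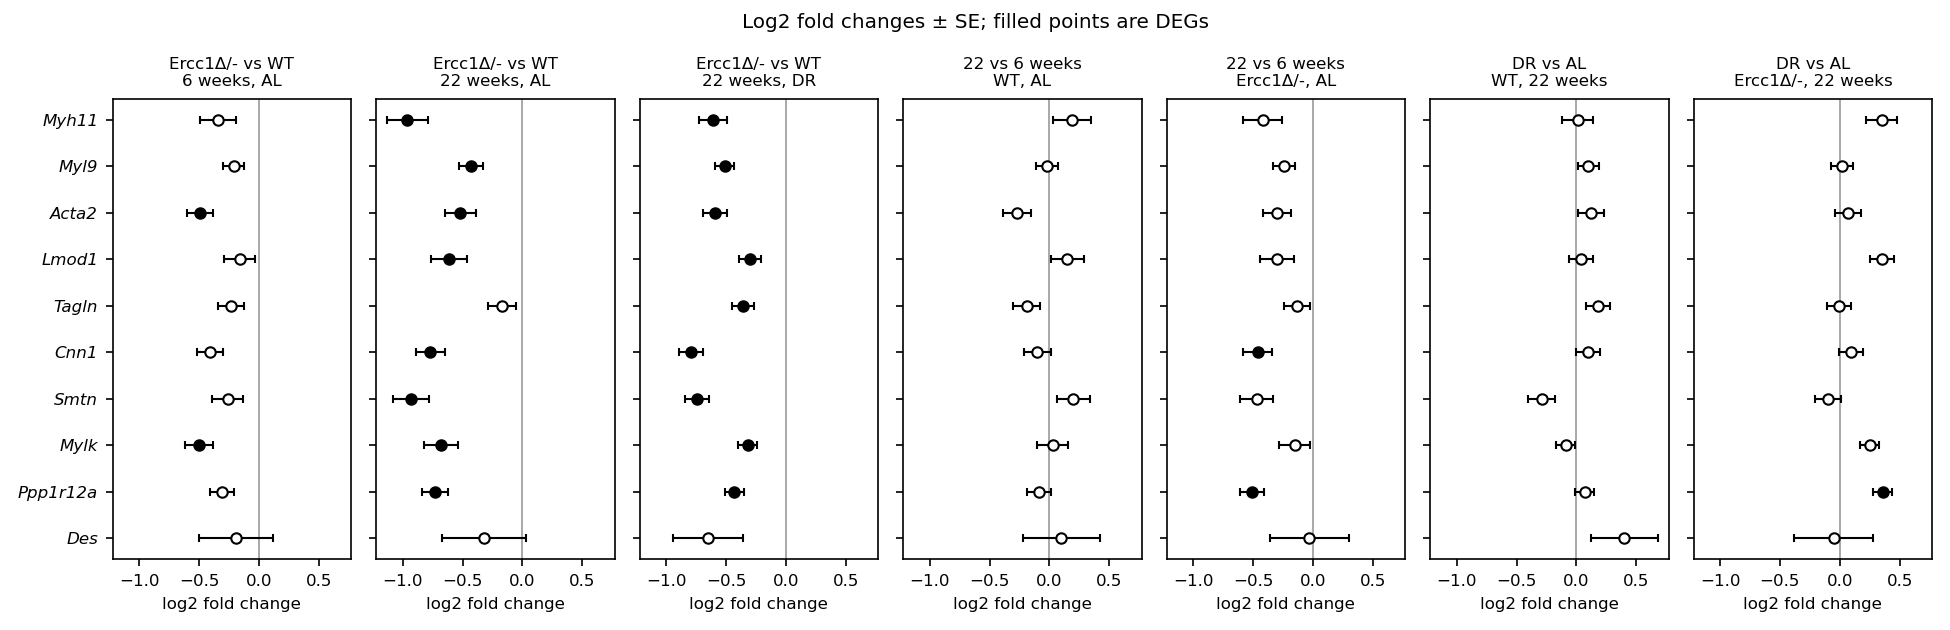
Log2 fold change ± SE of each contractile gene in 7 comparisons: genotype at 6 weeks on AL, 22 weeks on AL and 22 weeks on DR, age in WT and Ercc1Δ/- mice, and diet in WT and Ercc1Δ/- mice, with DEGs as filled points. The points of the genotype comparisons all lie below 0, from -0.96 for Myh11 at 22 weeks on AL to -0.16 for Lmod1 at 6 weeks, while those of age and diet in WT mice lie on both sides of 0.

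Sex and depth moved with these values in part. In the Ercc1Δ/- group of 22 weeks on AL, both females lay below both males for 9 of 10 members, all except Des, where 21.2% of all genes tested were so ordered. All females lay below all males for 5 members in WT mice on DR (12.8% of all genes). This held for 4 members in WT mice of 22 weeks on AL, with 1 female (23.6%), and for 3 in Ercc1Δ/- mice on DR (11.4%). At 6 weeks it held for 1 in WT (8.43%) and 0 in Ercc1Δ/- mice (9.71%). The reverse order, females above males, held for 1 member in WT mice of 22 weeks on AL (23.7% of all genes). It also held for 1 in Ercc1Δ/- mice of 6 weeks (11.0%) and for 0 in every other group. In the Ercc1Δ/- mice of 22 weeks on AL, summed macrophage markers were 3435.7 and 3998.6 in the females and 2195.3 and 2681.6 in the males. Summed fat markers were 14245.7 and 9775.5 in those females and 3104.6 and 6985.2 in those males. In males alone, 3 against 2 mice, 3 members passed at 22 weeks on AL, Cnn1 (-0.58), Smtn (-0.75) and Ppp1r12a (-0.62), and the other 7 had negative log2 fold changes down to -0.68 for Myh11. On DR, where 3 males stood against 3, 9 members passed in males alone. The shares of all genes called in males alone, the background of these counts, are not reported here. The Ercc1Δ/- libraries on DR were shallower (921167 to 2572523 counts) than the WT libraries on DR (2660422 to 6124471). At 22 weeks on AL they were shallower too, at 1294980 to 3855444 against 3903589 to 9616382 counts, without overlap. Among these Ercc1Δ/- libraries on AL, the 2 females (3351172 and 3855444) were deeper than the 2 males (1294980 and 1433979). After all libraries were thinned to 921167 counts, 2, 8 and 9 members passed at 6 weeks, 22 weeks on AL and 22 weeks on DR, as many as at full depth. The thinned libraries left 9627 genes to test, and the share of them that was called is not reported here. The 6-week result hung on single libraries, since 0 members passed without Ercc1Δ/- sample 002, without WT sample 009 or without WT sample 011.

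The second question was how the genes change between 6 and 22 weeks on AL. In WT mice 0 of 10 members passed with edgeR, which called 0.235% of all genes. An unadjusted p under 0.05 was reached by 1 member (Acta2, -0.27) and by 1068 of all 12353 genes. DESeq2, which called 106 genes there, likewise called 0 members. The WT log2 fold changes ran from -0.27 for Acta2 to 0.20 for Smtn, 5 of them negative. In Ercc1Δ/- mice all 10 were negative (median -0.30, all genes 0.01) and 2 passed, Cnn1 (-0.46, SE 0.12, adjusted p = 0.0188) and Ppp1r12a (-0.51, SE 0.10, adjusted p = 0.00468), where 2.57% of all genes were called lower. Ppp1r12a was the member whose 22-week Ercc1Δ/- libraries, at 1163.0 to 1350.1, all lay below those of 6 weeks, at 1352.8 to 1983.3, an order that 3.38% of all genes showed. Smtn fell short with edgeR (-0.47, adjusted p = 0.0577), as did Myh11 (-0.42, adjusted p = 0.154). With DESeq2 Smtn passed (-0.47, adjusted p = 0.0344), which made 3 members, and it also passed with all 6 groups in the fit and without Ercc1Δ/- sample 023. Without Ercc1Δ/- sample 027 of 6 weeks, 4 members passed, with Myh11 at -0.53 and Smtn at -0.57 added. Cnn1 did not pass without Ercc1Δ/- sample 004, 005 or 008, and 0 members passed in males alone. There Myh11 was at -0.10, and Tagln (0.08) and Mylk (0.11) had the opposite sign.

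A test of whether the genotype effect itself differed between ages called 0 of 10 members and 0.842% of all genes with edgeR. At an unadjusted p under 0.05 were 5 members (Myh11 -0.61, Smtn -0.67, Lmod1 -0.45, Ppp1r12a -0.42 and Cnn1 -0.37). Of all 12353 genes, 1409 reached that limit. DESeq2, which called 197 genes for this interaction, likewise called 0 members. Smtn passed when Ercc1Δ/- sample 027 was left out (-0.76, adjusted p = 0.0334). The larger number of members called lower at 22 weeks than at 6 weeks does not by itself show that their genotype effects differ between ages.

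The third question was whether DR moves the genes at 22 weeks. In WT mice 0 of 10 members passed with edgeR, which called 1.28% of all genes. An unadjusted p under 0.05 was reached by 1 member (Smtn, -0.29) and by 1581 of all 12353 genes. DESeq2, which called 228 genes there, likewise called 0 members. In Ercc1Δ/- mice 1 member was higher on DR, Ppp1r12a, and 0 were lower, against 0.648% of all genes called higher and 0.988% called lower. Ppp1r12a had 1392.8, 1527.5, 1652.5, 1694.6 and 1841.9 normalized counts on DR and 1163.0, 1211.0, 1335.8 and 1350.1 on AL. Every DR library was above every AL library, an order that 2.0% of all genes showed, and the log2 fold change was 0.36 (SE 0.08, adjusted p = 0.0278). Its DR level stayed below the WT range on DR of 1943.1 to 2380.8. The call was lost without Ercc1Δ/- sample 004 (0.33, adjusted p = 0.0938), 005 (0.35, 0.072), 026 (0.37, 0.0637) or 022 (0.31, 0.0601), and with sample 003 added (adjusted p = 0.0707).

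Lmod1 (0.35, adjusted p = 0.0713), Myh11 (0.35, adjusted p = 0.163) and Mylk (0.25, adjusted p = 0.113) had positive values in Ercc1Δ/- mice on DR that did not pass in edgeR. Lmod1 passed with DESeq2 (0.36, adjusted p = 0.0321), without Ercc1Δ/- sample 006 (0.41, adjusted p = 0.0342) and without WT sample 010 (0.36, adjusted p = 0.0468). The other 6 members lay between -0.10 for Smtn and 0.09 for Cnn1. The 4 members with positive values of 0.25 or more are the ones with the longest genes, Lmod1 (43.4 kb), Myh11 (96.8 kb), Ppp1r12a (122.7 kb) and Mylk (257.2 kb), and the 6 near 0 have genes of up to 24.7 kb. Split at 40 kb, a limit chosen after these values were seen, the member medians were 0.35 and 0.01, while those of all genes tested were 0.04 for 4426 longer genes and -0.02 for 7917 shorter ones. In WT mice the same members had medians of 0.02 and 0.11. In males alone, 2 on AL and 3 on DR, the longer genes had smaller values in Ercc1Δ/- mice, 0.06 for Myh11, 0.13 for Lmod1, 0.15 for Mylk and 0.32 for Ppp1r12a. The shorter genes ran from -0.26 for Smtn to -0.07 for Acta2 in these males, except Des at 0.16. With 4 and 6 genes this is a description, and the same libraries stand behind all 10 values. A test of whether the diet effect differed between genotypes called 0 of 10 members and 0.0971% of all genes with edgeR. At an unadjusted p under 0.05 were 3 members (Mylk 0.34, Lmod1 0.31, Ppp1r12a 0.29). Of all 12353 genes, 1077 reached that limit. DESeq2, which called 43 genes for this interaction, likewise called 0 members.

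**Figure D4:**
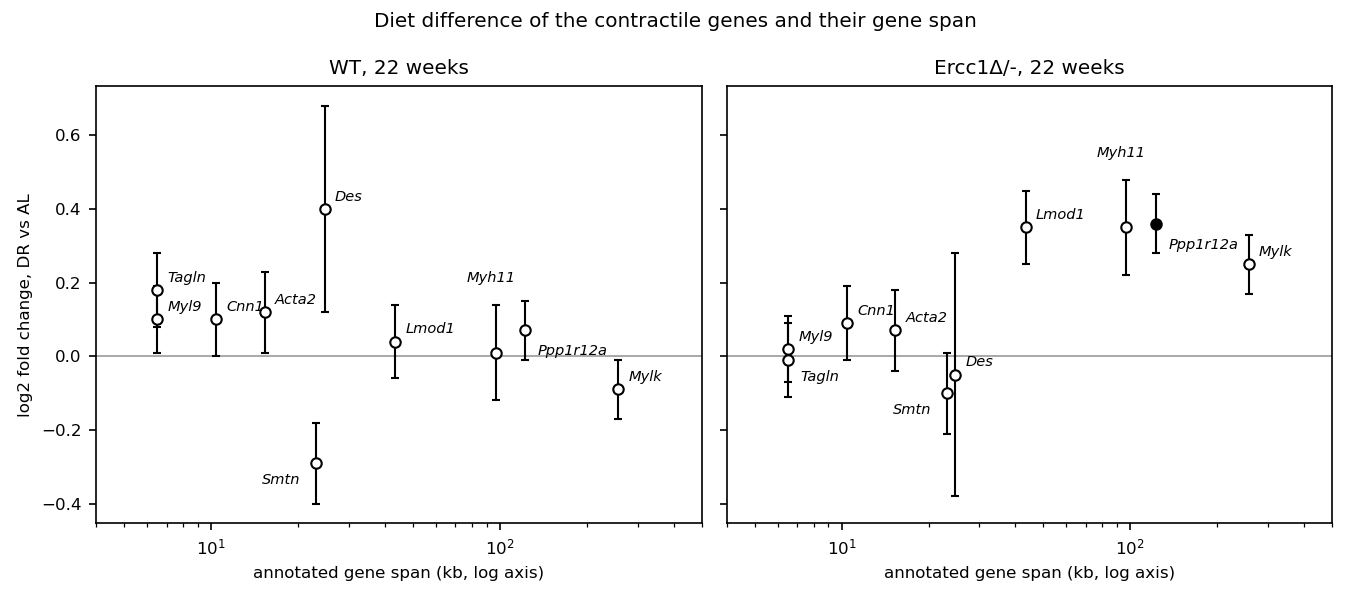
Log2 fold change ± SE on DR against AL at 22 weeks for each contractile gene, against the length of its gene in kb (log axis), for WT and Ercc1Δ/- mice, with the DEG filled. In Ercc1Δ/- mice the 4 genes over 40 kb lie between 0.25 and 0.36 and the 6 shorter ones between -0.10 and 0.09, with both sexes in the fit.

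Genes that work beside the members were followed in 5 lists. Some genes stand in several lists, so the counts of the lists are not separate. Actg2 and Myl6 are among filaments and paralogs, Ilk among filaments and light chain control, and Ppp1r12b among light chain control and paralogs. Of 37 genes of the filaments and their anchorage, 11 were lower at 6 weeks, 25 at 22 weeks on AL and 30 at 22 weeks on DR, with medians of -0.34, -0.59 and -0.48. The shares of all genes called lower, 1.13%, 6.16% and 7.03%, are the background of these counts and of those of the other lists. At 22 weeks on AL the smallest p-values belonged to Vcl, vinculin of the dense plaque (-0.82, adjusted p = 2.48e-05), Actn1, an actin cross-linker of the dense body (-0.81, 0.000165), Pdlim7 and Tpm1, a tropomyosin of the thin filament (-0.73, 0.000198). The 1 gene of this list that was higher there was Tpm4, a tropomyosin also made by many non-muscle cells (0.39, SE 0.09, adjusted p = 0.00577), named after its value was seen. On DR Tpm4 did not pass (0.10, adjusted p = 0.443). In Ercc1Δ/- mice 3 of the 37 genes were higher on DR, Myom1 (0.58), Tns1 (0.36) and Synpo2 (0.51), and 0 were lower.

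Of 26 tested genes that control light chain phosphorylation, 3 were lower at 6 weeks, 7 at 22 weeks on AL and 8 on DR, and 0, 1 and 0 were higher. Ppp1r12b, a second targeting subunit of myosin phosphatase, was lower in all 3 comparisons (-0.54, -0.88 and -0.35, adjusted p = 0.0389, 0.000398 and 0.0143). Ppp1r14a, the phosphatase inhibitor CPI-17, was lower at 22 weeks on AL (-0.79, adjusted p = 0.000289) and on DR (-0.60, adjusted p = 0.00293). Of 18 regulators of the SRF and myocardin program, Myocd was lower in all 3 comparisons (-0.84, -0.84 and -0.71, adjusted p = 0.0122, 0.00681 and 0.00145) and Srf at 22 weeks (-0.65 on AL, -0.58 on DR). In this list 2, 3 and 6 genes were lower and 0 higher, among them Csrp2 at 6 weeks and Mef2d at 22 weeks on AL.

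Of 24 tested paralogs of the members, 2 were lower at 6 weeks, 6 at 22 weeks on AL and 9 on DR, and 0 were higher. Actg2, the enteric smooth muscle actin, was lower at 22 weeks (-1.19 on AL, -1.10 on DR), as were Cnn3 (-0.87 and -0.69) and Mylk4 (-0.96 and -0.71). Reads of near-identical actins can be split or lost in counting, so the values of Acta2 and Actg2 carry that uncertainty. Of 22 tested smooth muscle lineage genes outside the contractile apparatus, 5, 11 and 11 were lower and 0 higher. Itga8, an integrin of smooth muscle, was lower in all 3 comparisons (-0.71, -1.05 and -0.79), as was Mcam. Cspg4, a mural cell proteoglycan, was lower at 22 weeks (-0.83 on AL, -0.87 on DR). Pdgfrb, a receptor of mural cells and fibroblasts, did not pass on AL (-0.22, adjusted p = 0.202) and was lower on DR (-0.32, adjusted p = 0.0127).

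**Figure D5:**
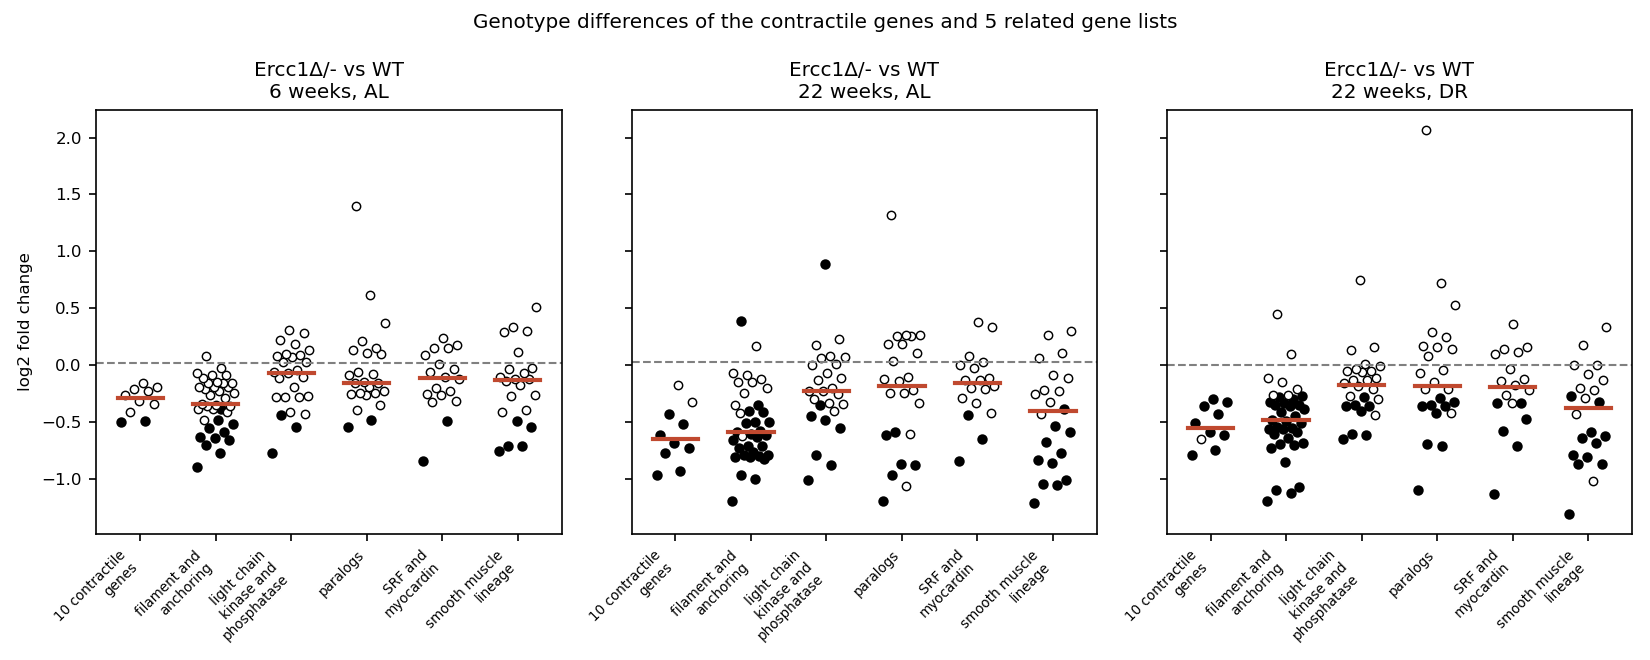
Log2 fold changes (Ercc1Δ/- against WT) of the 10 contractile genes and of the tested genes of the 5 lists in the 3 genotype comparisons, with a point for each gene (filled for DEGs), a red bar for the median of each list and a dashed line for the median of all genes tested. The filament and anchoring genes have medians of -0.34, -0.59 and -0.48.

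Markers of other cells of the arch moved in part with genotype. Of 9 tested macrophage markers, 1, 8 and 5 were higher in Ercc1Δ/- mice at 6 weeks, 22 weeks on AL and 22 weeks on DR. Cd68 was at 1.25, 2.09 and 1.13. The shares of all genes called higher were 0.567%, 5.88% and 5.97%. They are the background of every count of markers called higher between genotypes. The sum of the 10 listed macrophage markers ran from 777.0 to 937.0 in WT and 927.0 to 2432.9 in Ercc1Δ/- mice of 6 weeks. It ran from 981.4 to 1469.3 in WT and 2195.3 to 3998.6 in Ercc1Δ/- mice of 22 weeks on AL, and from 616.0 to 1127.7 and 1394.2 to 4681.7 on DR, and no macrophage marker was at 0 in all libraries of a group. In Ercc1Δ/- mice 5 of the 9 tested macrophage markers were lower on DR (median -0.92), where 0.988% of all genes were called lower. In WT mice 1 was lower on DR, C1qb (0.939% of all genes), and all 9 had negative log2 fold changes (median -0.39). The genotype by diet interaction called 0 of the 9. Fibroblast sums overlapped between genotypes in every comparison (12239.0 to 18734.9 in Ercc1Δ/- and 14635.1 to 18169.4 in WT mice of 22 weeks on AL), with 3 of 10 markers lower and 1 higher. Of 10 endothelial markers 0, 2 and 5 were higher and 0 lower. Of 7 tested cardiac markers 1 was higher on each diet at 22 weeks (Tnnt2) and 0 at 6 weeks. At 22 weeks on AL 5 of the 7 had negative log2 fold changes (median -0.45). On DR 1 was negative (median 1.22), and at 6 weeks 1 (median 1.33). The 10 fat markers gave 0 calls between genotypes, the 2 tested skeletal muscle markers 0, the 6 tested nerve and Schwann markers 1 (Cdh19, higher at 22 weeks on AL), and 0 of 10 T and B cell markers passed the count limit. One library, Ercc1Δ/- sample 013, had a skeletal muscle sum of 979.1 where the others had 14.1 to 70.8, and without it 8 members passed at 22 weeks on AL. A WT library of 6 weeks had a nerve and Schwann sum of 3697.0, against at most 288.8 in the other libraries. The part of these cells in the members' differences was not tested.

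The genes whose 6 group means were most like the members' mean profile, among 6445 non-member genes with at least 100 normalized counts, were Cap2 (Pearson r = 0.997), Rbpms (0.997), Phc3 (0.994), Scube3 (0.992), Sobp (0.992) and Mcam (0.992). The likeness was measured over 6 points that share their libraries. The members' profile is lower in Ercc1Δ/- mice, so lower values in the genotype comparisons follow from how these genes were picked. Scube3 had log2 fold changes of -0.65, -1.64 and -1.23 and Mcam of -0.75, -1.21 and -0.87 in the 3 genotype comparisons, all DEGs. Cap2 (-0.68 and -0.49), Rbpms (-0.62 and -0.47) and Sobp (-0.83 and -0.55) were DEGs at 22 weeks on AL and DR, whereas Phc3 did not pass in any of the 3.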

How the data were processed

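RNA of the aortic arch (miRNeasy, NEBNext Ultra II Directional kit) was sequenced as paired reads with unique molecular identifiers. The deposited values are raw counts per gene, which the authors made with fastp 0.23.2, STAR 2.7.10a on GRCm39, UMI-tools 1.1.2 and HTSeq 2.0.2 over whole gene bodies; the strand setting is not given in the sources used here. Per library, 7.27 to 10.1% of counts met no feature, 1.4 to 1.82% were ambiguous and 3.66 to 7.06% not unique, and these 5 rows that name no gene were left out. Without strand, reads of opposite-strand genes inside a member cannot be told apart from it. Gm48529, which overlaps 5995 bases of Tagln, had 1683 counts against 525313 of Tagln.

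The members and gene lists were chosen with earlier results of these data known. The low-count limit (over 10 counts in over 10 of 28 samples) left 12353 genes, which were tested with edgeR 4.0.16 (quasi-likelihood, trimmed mean of M-values, group and sex as terms) in 2 fits, AL samples (18) and 22-week samples (18), with Benjamini-Hochberg adjustment. These follow the study's thresholds and sex term, while the study used DESeq2 1.34.0. Interactions needed an adjusted p of at most 0.05 only. The text names all 10 members, Ercc1, up to 4 called genes with the smallest p of each list and comparison, and the 6 genes most alike in group means. Other list genes (Actg2, Cd68, Cdh19, Pdgfrb, Ppp1r12b, Ppp1r14a, Srf, Tnnt2 and Tpm4 where outside that rule) were named after their values were seen, and some list genes are not reported here. Exact permutation tests on normalized counts were two-sided. Gene positions and exon lengths came from GENCODE M39, promoters from RefSeq. The tests were tried on simulated data. DESeq2 1.42.0, other scalings, filters, samples, depth and leaving out each library were the alternatives.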

Additional observations from a re-analysis of the deposited data

Results flagged for a closer look

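In 60 groups of 4 or 5 libraries, 10 genes in 6 groups, the gap between an end value and its neighbour was compared with the range of the group, and 7 groups held a value that stood apart. Chance marks about 1 in 20 such groups, and the members share libraries, so the 7 are not independent. WT sample 010 on DR accounts for 3 of them, as the highest of its group for Tagln (26543.2 normalized counts, next 21012.7), Cnn1 (7774.1, next 6702.8) and Myl9 (15160.7, next 12307.3). WT sample 009 was the highest 6-week WT library for Myl9 (13941.3, next 11778.5). Among Ercc1Δ/- libraries, sample 023 was the lowest at 6 weeks for Acta2 (23394.4, next 27102.8), sample 015 the highest at 6 weeks for Lmod1 (7276.0, next 4927.2) and sample 006 the highest on DR for Acta2 (27211.6, next 22470.5). Leaving out WT sample 010 left the log2 fold change of Lmod1 on DR at -0.21 (edgeR adjusted p = 0.146).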

How the results depend on the processing

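Of 900 recomputed genotype differences of the members, 898 kept their sign, and no called value changed sign under any alternative. The number of members called lower at 6 weeks was 4 with DESeq2, 1 with total-count scaling or without the sex term, 0 with only the compared groups, in males alone or when tested against 1.2-fold itself, and 0 to 3 when single libraries were left out. At 22 weeks on AL it was 3 in males alone, 5 against 1.2-fold and 7 to 8 without single libraries, with Acta2 lost without WT sample 018 (adjusted p = 0.0521). At 22 weeks on DR it was 5 against 1.2-fold, 7 with total-count scaling or all 6 groups in the fit, and 8 with sample 003, without the sex term or with only the compared groups. For age in Ercc1Δ/- mice it was 3 with DESeq2 or all 6 groups, 0 in males alone and against 1.2-fold, and 1 to 4 without single libraries; for the genotype by age interaction 0 to 1. For diet in Ercc1Δ/- mice it was 2 with DESeq2 or without the low-count filter, 0 with sample 003 added, with all 6 groups, with only the compared groups, in males alone and against 1.2-fold, and 0 to 2 without single libraries. Of all genes, edgeR called 210 between genotypes at 6 weeks, 579 for age and 202 for diet in Ercc1Δ/- mice. DESeq2 called more in each, 378, 728 and 348, and total-count scaling called 194 at 6 weeks. The cause of these shifts in the members' counts was not tested, and males alone and the compared groups leave fewer samples. The numbers of all genes called against 1.2-fold and with only the compared groups are not reported here. Total-count scaling moved the median of all genes by less than 0.1 but lowered the lower share of all calls from 66.7 to 43.3% (6 weeks), 51.2 to 36.6% (22 weeks, AL) and 54.1 to 35.5% (22 weeks, DR). The members' share in Ercc1Δ/- mice on DR was 3.14% without mitochondrial genes. With the longest transcript as length, levels in WT mice of 22 weeks on AL were 2223.9 (Myh11), 3123.7 (Acta2), 3145.2 (Tagln), 711.2 (Cnn1), 863.0 (Smtn), 1738.2 (Myl9), 295.7 (Mylk), 28.2 (Des) and 84.8 (Ppp1r12a) CPM per kb, which swaps Acta2 and Tagln. edgeR's earlier dispersion method was added after seeing the data. No paired analysis was possible because the groups share no replicate numbers.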
